A study of Caenorhabditis elegans with 6 samples.

Results

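The 9 genes met-2, set-25, set-32, hpl-1, hpl-2, lin-61, lin-13, lin-65 and arle-14 encode the core machinery of H3K9 methylation and heterochromatin in the nematode Caenorhabditis elegans. They were listed by name, and all 9 were matched to an identifier among the 46934 in the count files. RNA was compared between germlines of sin-3(tm1276) mutants and wild-type animals, with 3 libraries each. The allele tm1276 is a deletion in sin-3, which encodes the scaffold of a histone deacetylase complex. Both groups were young adults dissected 12 h after the L4 larval stage, and no other allele or agent is given for either. Each library came from the pooled gonads of 5 to 7 animals, cut at the bend so that the distal arm was kept. That arm holds mitotic and early meiotic germ cells with the somatic cells around them. Whether the 3 libraries of a genotype are from different cultures is not given, and p-values here reflect how far these libraries vary, which may be technical in part.

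Methylation of lysine 9 on histone H3 is written by SET-domain enzymes and read by proteins that bind the methylated tail and keep the chromatin compact. In C. elegans, MET-2, the homologue of mammalian SETDB1, adds the lower methylation states, working with its cofactors LIN-65 and ARLE-14, and SET-25 adds the trimethyl state. SET-32 acts in small-RNA-directed silencing in the germline. The readers include the HP1 homologues HPL-1 and HPL-2 and the MBT-repeat protein LIN-61, and the zinc-finger protein LIN-13 binds in a complex with HPL-2 and LIN-61. In the germline this system keeps repeats silent and is needed for fertility over generations.

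Gene-assigned reads ranged from 24491014 to 30634455 in the mutant libraries and from 24505604 to 25002505 in the wild-type libraries. Levels are given as CPM, counts relative to library size, scaled by the trimmed mean of M values (TMM), a method that sets libraries to a common level from the bulk of their genes. The targeted gene sin-3 stood at 179.7 ± 4.27 CPM in mutants, against 364.9 ± 5.71 CPM in wild type (SD, n = 3 each), and was lower in all 3 mutant libraries. Counts cover the whole gene and leave unknown which part of the transcript remained. All 12 listed germ cell markers were tested, with summed levels of 3430 to 3482 CPM in mutants and 3555 to 3847 CPM in wild type. Of these germ cell markers 2 were called higher and 5 lower, with a median log2 fold change, mutant over wild type, of -0.13. The largest fall among them was that of glh-2, a germline helicase gene named here after its values were seen. It stood at 129.4 ± 3.58 CPM in mutants and 201.1 ± 14.7 CPM in wild type (SD, n = 3 each). Over all genes tested 31.3% were called higher and 30.7% lower. Of the listed somatic gonad markers 7 were tested, with 5 called higher and 0 lower, and their list summed to 141.1 to 159.9 CPM in mutants and 78.8 to 92.7 CPM in wild type. Of that list, with 11 genes in the files, ehn-3 was at 0 in every library. Of the tested intestine markers 1 of 8 was called higher, and of body muscle markers 0 of 6. Of hypodermis markers 1 of 4 and of neuron markers 1 of 5 were called higher, and 2 neuron markers were called lower. The intestine list summed to 222.8 to 276.9 CPM in mutants and 217.2 to 570.4 CPM in wild type. The hypodermis list summed to 135.4 to 161.9 CPM in mutants and 143.3 to 270.9 CPM in wild type. Body muscle sums were 122.0 to 169.8 CPM in mutants and 101.3 to 177.4 CPM in wild type. Neuron sums were 49.6 to 53.9 CPM in mutants and 73.3 to 78.2 CPM in wild type. Few calls thus do not mean even levels among these libraries. Fewer cells of a type and less RNA per cell cannot be told apart in such bulk samples, and the part of the germ cell and somatic marker differences in the values that follow was not tested.

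All 9 genes passed the filter on low counts, and they moved in both directions by modest amounts. In the mutant hpl-2 and lin-65 were higher, while lin-61, arle-14, lin-13 and met-2 were lower, and set-25, set-32 and hpl-1 did not pass the test. The largest difference was that of hpl-2, a 1.46-fold rise, and the largest decrease was that of lin-61, to 0.749 of its wild-type level. The test was edgeR's quasi-likelihood test with Benjamini-Hochberg adjustment over the 9787 genes tested, at a threshold of 0.05. A difference was common in these libraries, since 62% of all genes tested passed that threshold, 31.3% as higher and 30.7% as lower in the mutant. The 6 called genes of 9 are thus close to that share. For 8 of the 9 genes all mutant libraries lay on one side of all wild-type libraries, against 67.8% of all genes tested. The median log2 fold change, mutant over wild type, was -0.092 over the 9 genes and 0.028 over all genes tested. It was -0.12 for the 8 autosomal genes among them and -0.036 for all 8522 autosomal genes tested. For autosomal protein-coding genes it was -0.085 with a mean from 8 to under 64 CPM, where set-32 and arle-14 lie, and -0.12 with a mean of 64 CPM or more, where the other 6 lie.

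**Figure D1:**
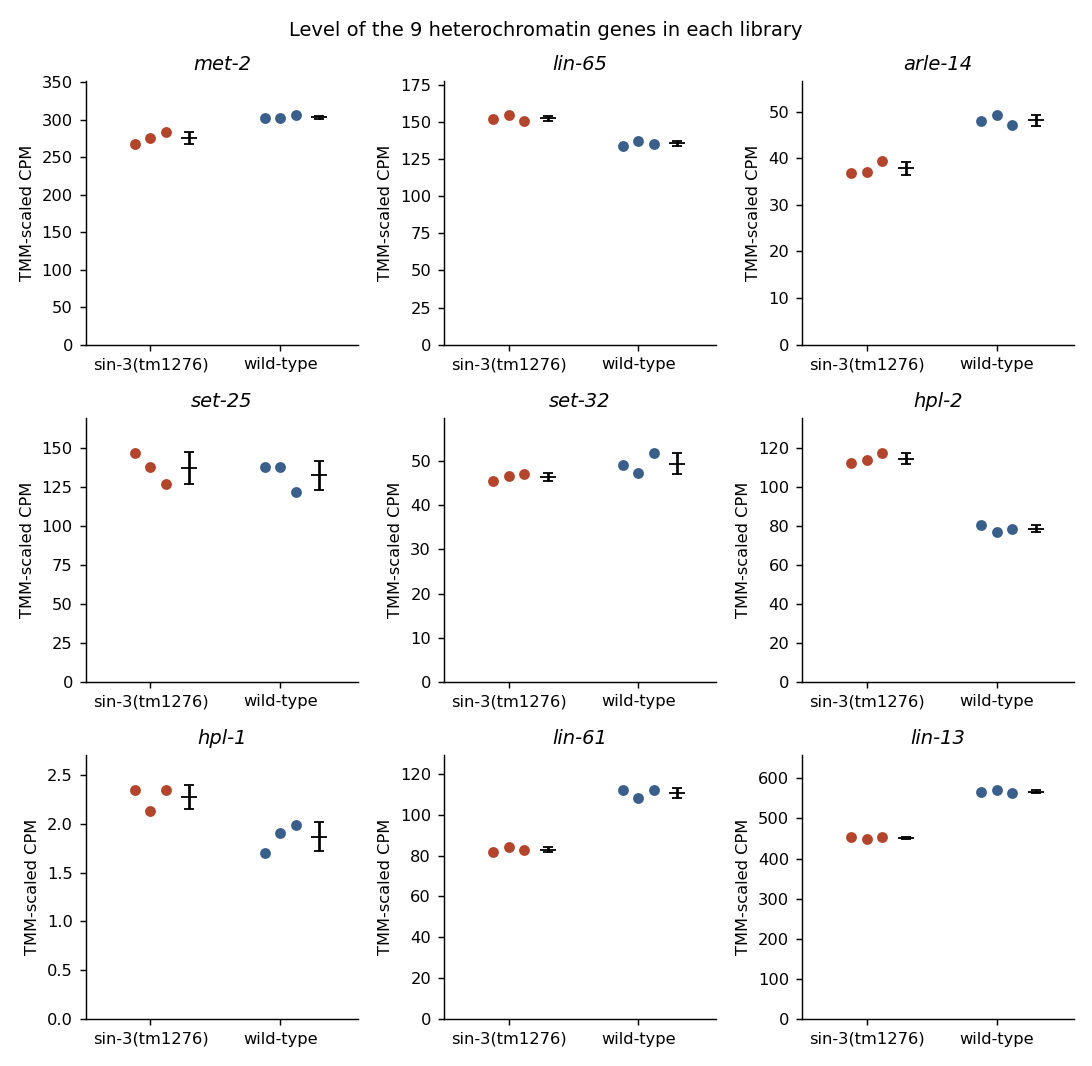
Level of each of the 9 genes in TMM-scaled CPM (vertical axes from 0), with 1 point per library, 3 sin-3(tm1276) and 3 wild-type, and the mean with its SD beside them. The points of hpl-2 and lin-65 lie higher in the mutant, those of lin-61, lin-13, arle-14 and met-2 lie lower, and those of set-25 overlap.

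The methyltransferase gene met-2 (WBGene00019883, chromosome III, 8375300 to 8380848 in the WBcel235 assembly, plus strand) was slightly lower in the mutant. It had 268.1, 275.9 and 283.2 CPM in mutant replicates 1 to 3 and 302.8, 302.1 and 305.8 CPM in wild-type replicates 1 to 3. The highest mutant library was below the lowest wild-type library, and the wild-type libraries lay closer together than the mutant ones. On the log2 scale this was a change of -0.14 ± 0.032 (SE; adjusted p = 0.00187). This call depended on scaling. When libraries were scaled by their totals, the median log2 fold change of all genes moved up by 0.17 and that of met-2 turned to 0.028 (adjusted p = 0.516), still under the median of all genes on that scale, 0.19. The call also ended among genes with 5 CPM or more on average, at -0.070 (adjusted p = 0.0676).

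The cofactors of MET-2 moved apart. The gene lin-65 (WBGene00022149, chromosome I, 1755329 to 1766400, plus strand), whose product is needed for MET-2 to gather in nuclear foci, was higher in the mutant. Its levels were 152.2, 154 and 151.0 CPM in mutant replicates 1 to 3 and 133.8, 137.5 and 135.5 CPM in wild-type replicates 1 to 3. The mutant values all lay above the wild-type ones, with little spread in either group. The rise was 1.13-fold, or 0.17 ± 0.032 (SE) on the log2 scale (adjusted p = 3.98e-04).

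The other cofactor gene, arle-14 (WBGene00015145, chromosome III, 5692906 to 5693938, plus strand), was lower in the mutant. It stood at 36.9, 37.0 and 39.5 CPM in mutant replicates 1 to 3, against 48.1, 49.2 and 47.0 CPM in wild-type replicates 1 to 3. Every mutant library lay well below every wild-type one. Mutant over wild type, the change was -0.35 ± 0.052 (SE) on the log2 scale (adjusted p = 4.79e-05), which left the gene at 0.786 of its wild-type level.

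The remaining methyltransferase genes did not pass the test. Levels of set-25 (WBGene00012802, chromosome III, 13283824 to 13293090, minus strand) were 146.8, 137.3 and 126.4 CPM in mutant replicates 1 to 3 and 137.4, 137.8 and 121.6 CPM in wild-type replicates 1 to 3. The groups overlapped, and replicate 3 was the lowest library in each genotype. Libraries of one genotype varied more here than for the other well-expressed genes of the list, with a coefficient of variation of 7.47% in mutants and 7.00% in wild type. The estimate was 0.049 ± 0.064 (SE) on the log2 scale, with a 95% interval from -0.096 to 0.19 (adjusted p = 0.529). Scaled by library totals set-25 was called higher, at 0.22 (adjusted p = 0.0072), close to the median of all genes on that scale. Its exons overlap those of unc-64 by 64 bases and a piRNA gene by 21 bases, both on the other strand, and it is not stated whether counting used strand, so any effect on its level is unknown.

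The germline silencing gene set-32 (WBGene00008062, chromosome I, 9519244 to 9521275, plus strand) had 45.5, 46.6 and 47.2 CPM in mutant replicates 1 to 3, and 49.1, 47.4 and 52.0 CPM in wild-type replicates 1 to 3. The mutant values lay just below the wild-type ones without overlap. The log2 fold change was -0.092 ± 0.050 (SE; adjusted p = 0.126), and its 95% interval from -0.20 to 0.016 left room for a decrease to 0.870 of the wild-type level.

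The HP1 homologue hpl-2 (WBGene00001996, chromosome III, 10752195 to 10755530, minus strand) rose most among the 9 genes. It stood at 112.1, 113.6 and 117.4 CPM in mutant replicates 1 to 3, against 80.2, 76.9 and 78.3 CPM in wild-type replicates 1 to 3. The groups were far apart relative to the spread within either. The log2 fold change was 0.54 ± 0.037 (SE; adjusted p = 2.33e-08), and its 95% interval in fold terms ran from 1.38 to 1.54. In the order of log2 fold changes over all genes tested hpl-2 stood at percentile 79.6, within the upper part and not at its end.

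Its paralogue hpl-1 (WBGene00001995, chromosome X, 13245390 to 13247044, plus strand) had the fewest reads of the 9 genes. It had 61, 68 and 67 counts in mutant replicates 1 to 3 and 40, 44 and 47 counts in wild-type replicates 1 to 3. These counts correspond to 2.34, 2.13 and 2.35 CPM in mutants and 1.70, 1.90 and 1.99 CPM in wild type. The mutant libraries were all above the wild-type ones, but the difference did not pass the test, at a log2 fold change of 0.28 ± 0.19 (SE; adjusted p = 0.210). The 95% interval, from -0.13 to 0.70 on the log2 scale, includes no difference. It also includes the median of 0.62 seen over 765 X-linked protein-coding genes with a mean under 8 CPM. The median of 0.31 over 2670 autosomal protein-coding genes with a mean under 8 CPM lies within it as well. Among all X-linked genes tested, 61.5% were called higher and 2.97% lower in the mutant.

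The MBT-repeat reader gene lin-61 (WBGene00003041, chromosome I, 7248827 to 7251282, minus strand) fell most. It had 81.9, 84.2 and 82.6 CPM in mutant replicates 1 to 3, against 112.2, 108.0 and 111.9 CPM in wild-type replicates 1 to 3. The mutant libraries were tightly grouped and lay far below the wild-type ones. The edgeR estimate was -0.42 ± 0.036 (SE) on the log2 scale (adjusted p = 2.35e-07).

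The zinc-finger gene lin-13 (WBGene00003002, chromosome III, 7700338 to 7709491, minus strand) had the most reads of the 9 genes. Its levels were 454.3, 449.4 and 453.5 CPM in mutant replicates 1 to 3 and 566.5, 571.8 and 563.1 CPM in wild-type replicates 1 to 3. The coefficient of variation was 0.582% in mutants and 0.776% in wild type, so a decrease to 0.798 of the wild-type level was many times the spread. The log2 fold change was -0.33 ± 0.030 (SE; adjusted p = 3.8e-07). A pseudogene on the other strand overlaps its exons by 44 bases.

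**Figure D2:**
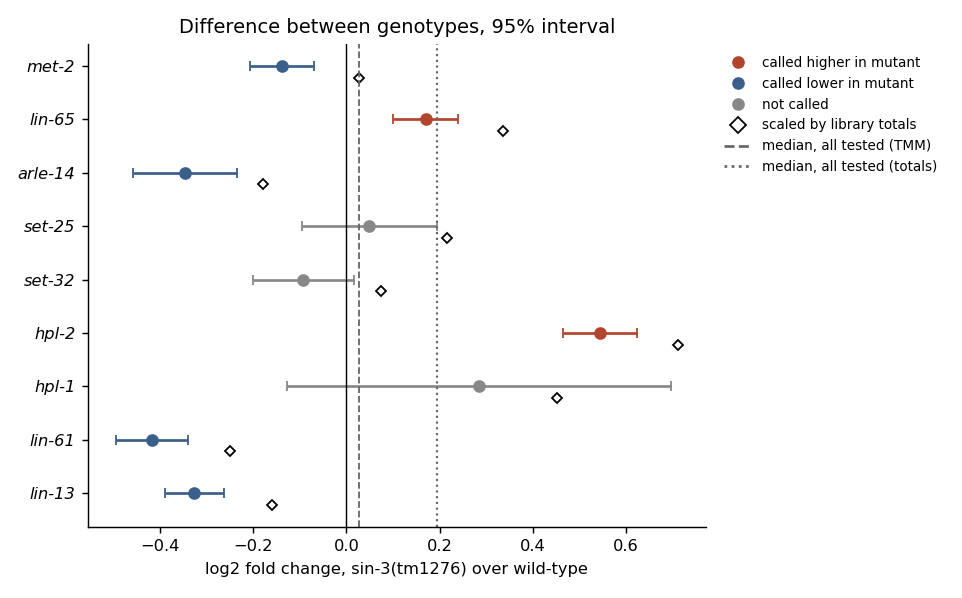
Log2 fold change of each gene, sin-3(tm1276) over wild-type (horizontal axis), with its 95% interval from the edgeR fit under TMM scaling; open diamonds give the value when libraries were scaled by their totals, and vertical lines the median of all genes tested under either scaling. Under library totals every value moved up by about 0.17, and met-2 and set-32 crossed 0.

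The calls of hpl-2, lin-65, lin-61, lin-13 and arle-14 held under every alternative run, including scaling by library totals. That scaling gave 45.4% of tested genes higher and 19% lower, against 31.3% and 30.7% under TMM scaling. The 5 genes then had log2 fold changes of 0.71, 0.34, -0.25, -0.16 and -0.18. The TMM factors themselves differed between genotypes, from 1.04 to 1.07 in mutant libraries and from 0.941 to 0.947 in wild-type libraries. In the authors' deposited table the same 6 genes had adjusted p values under 0.05, with the same directions, and the other 3 did not. The log2 fold changes of hpl-2 and lin-61 in the authors' deposited table were 0.51 and -0.45.

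Ratios between pairs of these genes within a library do not depend on how libraries are scaled; 7 pairs chosen by role were compared. The pair of lin-61 and hpl-2 sets the largest decrease of the list against the largest rise, so its place among the pairs follows from those values. Relative to hpl-2, lin-61 stood at a ratio of 0.473, 0.480 and 0.455 in mutant replicates 1 to 3, against 0.906, 0.909 and 0.924 in wild-type replicates 1 to 3, in counts per kilobase of merged exons. The mutant ratio was 0.514 of the wild-type ratio, and no library of one genotype came near the other. The ratio of lin-13 to hpl-2 was 0.721 ± 0.017 in mutants and 1.32 ± 0.035 in wild type (SD, n = 3 each), so that per length lin-13 exceeded hpl-2 in every wild-type library and in no mutant library. The ratio of hpl-1 to hpl-2 was 0.0319 ± 0.0017 in mutants and 0.0382 ± 0.0036 in wild type (SD, n = 3 each), with the groups just apart.

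The writers' cofactors also shifted relative to met-2. The ratio of lin-65 to met-2 was 0.874 ± 0.029 in mutants and 0.706 ± 0.012 in wild type, and that of arle-14 to met-2 was 0.650 ± 0.012 in mutants and 0.751 ± 0.021 in wild type (SD, n = 3 each). Neither ratio overlapped between the genotypes. The ratio of set-25 to met-2, 0.734 ± 0.075 in mutants and 0.643 ± 0.049 in wild type, did overlap, as did that of set-32 to set-25, 0.577 ± 0.054 in mutants and 0.637 ± 0.076 in wild type (SD, n = 3 each). For the 5 pairs without overlap the two-sided exact permutation p was 0.1, the smallest that 3 against 3 libraries can give. After Benjamini-Hochberg adjustment over the 7 pairs compared it was 0.14, so none could pass a threshold of 0.05. Each of these 5 pairs holds hpl-2 or met-2, so they are not separate observations. Of single genes tested 67.8% had no overlap, and the share over other pairs of genes was not obtained. The overlapping pairs had exact permutation p values of 0.3 for set-25 to met-2 and 0.4 for set-32 to set-25.

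**Figure D3:**
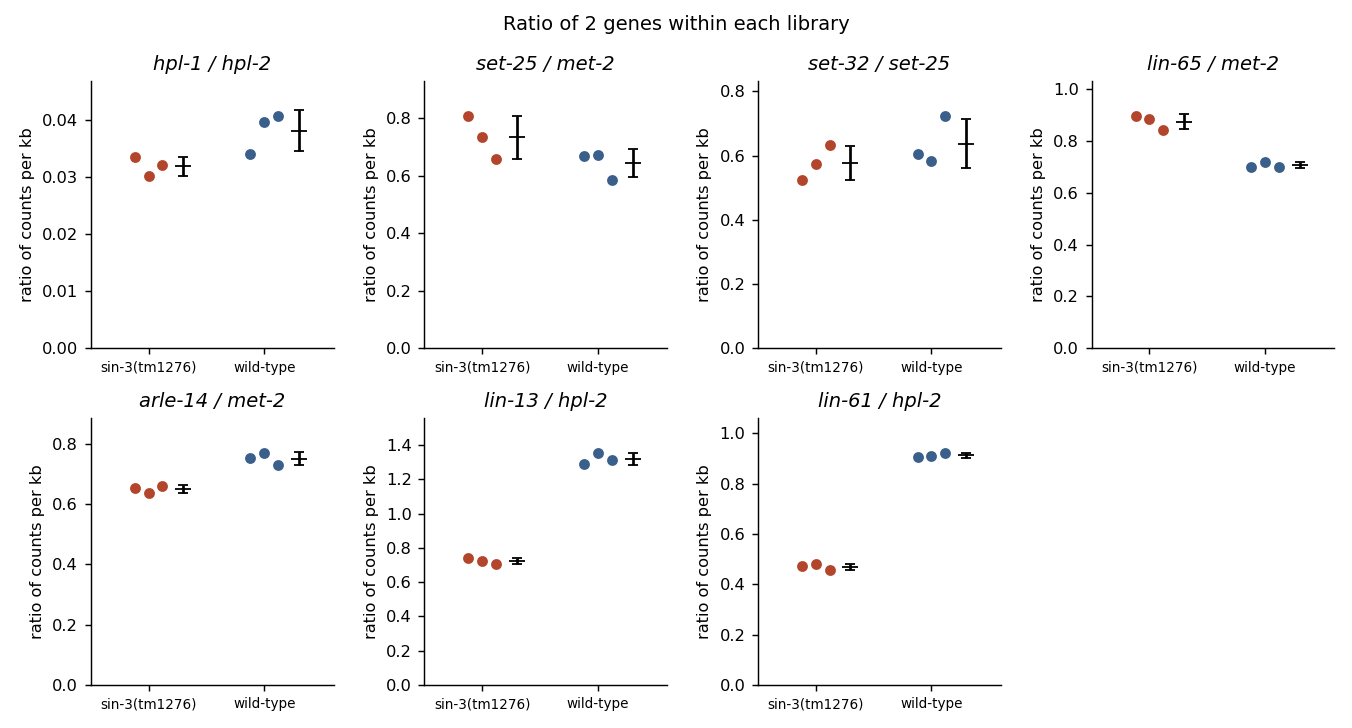
Ratio of counts per kilobase between 2 genes within each library (vertical axes from 0), with 1 point per library, 3 sin-3(tm1276) and 3 wild-type, and the mean with its SD beside them. The ratio of lin-61 to hpl-2 lies between 0.455 and 0.480 in mutants and between 0.906 and 0.924 in wild type, while the ratios that involve set-25 overlap.

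Per length, 8 of the 9 genes were expressed within a narrow range and hpl-1 far below it. In mutants the order of the mean level, in CPM per kilobase of merged exons, was hpl-2 at 88.9, met-2 at 66.7, lin-13 at 64.1, lin-65 at 58.3, set-25 at 48.9, arle-14 at 43.4, lin-61 at 41.7, set-32 at 28.1 and hpl-1 at 2.84. The ranges over the 3 mutant libraries overlapped between set-25 and arle-14 and between arle-14 and lin-61, and not between the other neighbours. In wild type the order was lin-13 at 80.4, met-2 at 73.5, hpl-2 at 61.0, lin-61 at 55.7, arle-14 at 55.2, lin-65 at 51.8, set-25 at 47.2, set-32 at 29.9 and hpl-1 at 2.33. Only lin-61 and arle-14 had overlapping ranges among the wild-type neighbours.

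The gene hpl-2 thus ranked 1 of the 9 in mutants and 3 in wild type, while lin-61 ranked 7 in mutants and 4 in wild type. Among tested protein-coding genes hpl-2 stood at percentile 87.8 of level per length in mutants and 76.1 in wild type, and hpl-1 at percentile 30.2 in mutants and 30.3 in wild type. The place of hpl-2 above or below met-2 in wild type depended on the length used. With the longest transcript in place of merged exons hpl-2 was at 74.4 CPM per kilobase there, just above met-2. The order of lin-61 and arle-14 in mutants also depended on the length. With the longest transcript lin-61 was at 45.1 CPM per kilobase in mutants, just above arle-14 at 43.9.

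**Figure D4:**
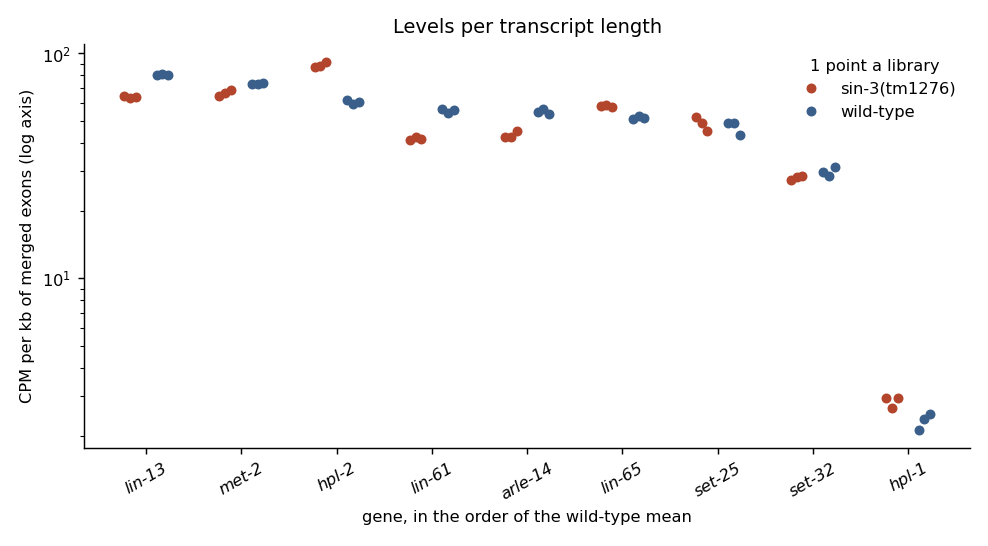
Level of each gene in CPM per kilobase of merged exons (log axis), 1 point per library, sin-3(tm1276) left of wild-type, with genes in the order of the wild-type mean. All genes but hpl-1 lie between 27.5 and 91.3 CPM per kilobase, and hpl-1 lies below 3.

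The genes whose pattern over the 6 libraries was most like that of hpl-2 and of lin-61 were found among 4014 named protein-coding genes that averaged 5 CPM or more. Likeness was the root mean square difference between log2 levels centred on each gene's mean. For hpl-2 the closest were mppa-1, ymel-1 and gop-2, at 0.014, 0.020 and 0.020, with log2 fold changes of 0.56, 0.52 and 0.52. For lin-61 they were rps-9, parp-2 and nars-1, at 0.0093, 0.014 and 0.014, with log2 fold changes of -0.42, -0.40 and -0.39.

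Genes that work beside these 9 were taken from 8 lists that hold 79 distinct genes in the files, 76 of them tested. Of these 17 were higher, 36 lower and 23 not called in the mutant. The called genes make up 69.7%, against 62% of all genes tested, with 22.4% higher against 31.3% and 47.4% lower against 30.7%. Scaled by library totals 37 were higher and 17 lower, beside 45.4% and 19% of all genes, so the direction of the smaller differences rests on the scaling. The counts in each list below are read beside those same shares over all genes, and with 6 to 18 genes a list they describe the list without setting it apart. Genes named from these lists other than the member with the smallest p were chosen after their values were seen. Exons of sin-3, cec-4, nrde-4, ubc-9, mppa-1, lin-15B, amx-1 and set-20 overlap those of a neighbouring gene by 3 to 141 bases, which makes their counts less certain.

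Among other chromatin readers, 11 chromodomain and MBT genes were tested. Of these 8 were lower and 2 higher, beside 30.7% lower and 31.3% higher of all genes, with a median log2 fold change of -0.34 beside 0.028. Under library totals 6 were lower and 3 higher, beside 19% and 45.4% of all genes. The chromodomain gene uad-2 had the smallest p, at 107.1 ± 1.17 CPM in mutants and 167.9 ± 2.82 CPM in wild type (SD, n = 3 each), though 624 bases of its exons overlap a gene on the other strand. The gene cec-4, whose product anchors chromatin with methylated H3K9 to the nuclear periphery, stood at 19.9 ± 0.33 CPM in mutants and 35.6 ± 2.7 CPM in wild type (SD, n = 3 each), a log2 fold change of -0.84 ± 0.070 (SE). That was a larger decrease than any of the 9 genes showed. The higher genes were cec-1 and cec-8, both at low levels, and mrg-1 was not called. The call of cec-1 ended without mutant replicate 2, mutant replicate 3 or wild-type replicate 2 (edgeR adjusted p = 0.0727, 0.0604 and 0.118). With the DESeq2 Wald test on all libraries 1 gene of this list was called higher, against 2 with edgeR.

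Of the other SET-domain genes listed for H3K9 or H3K23, 6 were tested, 4 were higher and 0 lower, with a median of 0.44, and 3 of the 6 are X-linked. Of all X-linked genes tested 61.5% were higher, and of all autosomal ones 26.8% were higher and 34.8% lower. The X-linked set-6 had the smallest p and rose to 7.53 ± 0.32 CPM in mutants, against 1.81 ± 0.30 CPM in wild type (SD, n = 3 each). The X-linked set-19 and set-20 also rose, 1.62-fold and 2.08-fold, as did the autosomal set-21, 1.14-fold. All 4 stood at lower CPM in both genotypes than met-2 or set-25.

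On the removal side, 6 of the listed JmjC and LSD1-family demethylase genes were tested, with 2 higher, 2 lower and a median of -0.038. The X-linked lsd-1 had the smallest p, at 20.4 ± 1.06 CPM in mutants and 14.5 ± 0.88 CPM in wild type (SD, n = 3 each), and amx-1 also rose. The gene spr-5, whose product removes methyl groups from H3K4, and the JmjC gene jmjd-2 fell, with log2 fold changes of -0.23 ± 0.040 and -0.28 ± 0.050 (SE). LSD1-family enzymes are best known for acting on H3K4, so lsd-1, amx-1 and spr-5 are not H3K9 demethylases by their best-known activity. Under library totals 4 genes of this list were higher and 0 lower.

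The 8 tested SUMO pathway genes, which modify many chromatin proteins, included 6 lower and 0 higher, with a median of -0.19. The conjugating enzyme gene ubc-9 had the smallest p, at 156.2 ± 7.64 CPM in mutants and 224.1 ± 10.7 CPM in wild type (SD, n = 3 each). Under library totals 1 was lower and 2 higher. Of 12 nuclear periphery genes 6 were lower and 1, unc-83, higher, with a median of -0.059, or 2 lower and 6 higher under library totals. The inner nuclear membrane gene lem-2 had the smallest p there, with a log2 fold change of -0.63 ± 0.037 (SE).

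Of 9 nuclear RNAi genes, which guide H3K9 methylation from small RNAs, 5 were lower and 1 higher, with a median of -0.11, or 3 lower and 3 higher under library totals. The smallest p was that of nrde-4, at 119.3 ± 5.51 CPM in mutants and 172.5 ± 0.92 CPM in wild type (SD, n = 3 each), and the gene that rose was the X-linked nrde-3. Without mutant replicate 1 or wild-type replicate 1, morc-1 was also called higher, so that 2 genes were. Of 18 synMuv genes, most of them of class B, to which lin-13, lin-61, hpl-2 and met-2 also belong, 6 were lower and 4 higher, with a median of 0.0039 that was -0.042 without mutant replicate 3, or 4 lower and 11 higher under library totals. The X-linked lin-15B had the smallest p in this list and rose 2.04-fold. Of 7 genes of H3K27 and H3K36 methylation 3 were lower and 3 higher, with a median of 0.042, or 1 lower and 4 higher under library totals. The H3K36 methyltransferase gene mes-4 had the smallest p, at a log2 fold change of -0.43 ± 0.034 (SE).

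**Figure D5:**
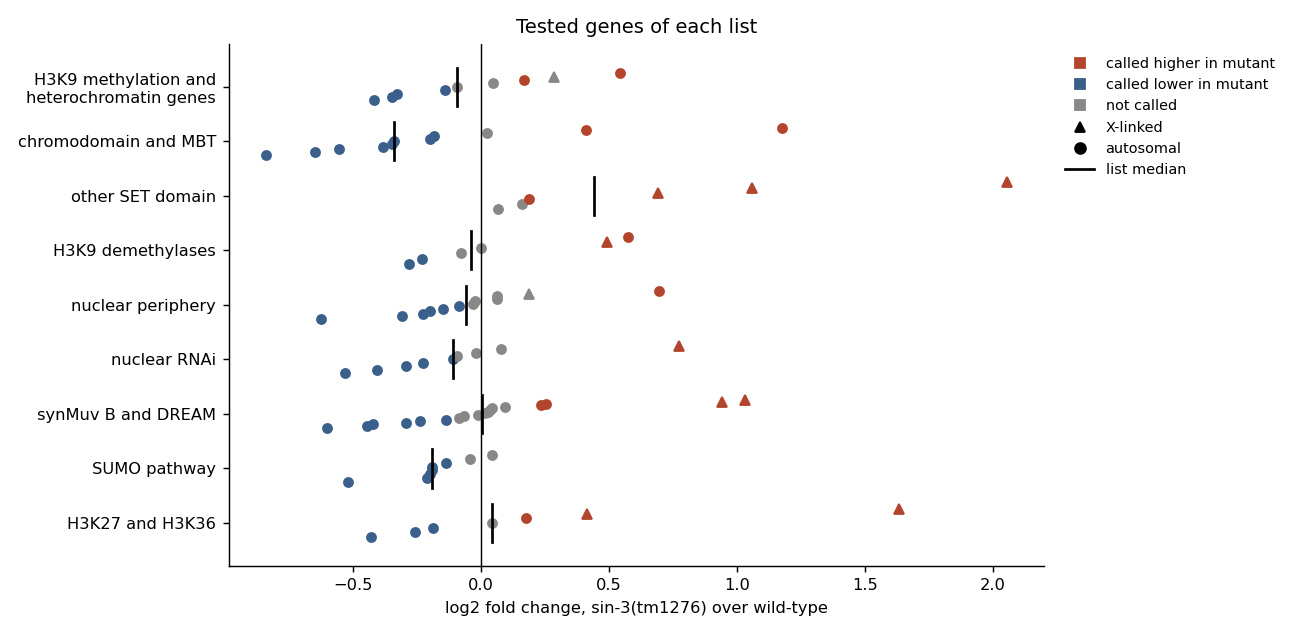
Log2 fold change, sin-3(tm1276) over wild-type (horizontal axis), of each tested gene in the list of 9 genes and in the 8 related lists, coloured by call, with triangles for X-linked and circles for autosomal genes and a bar at each list median. Medians run from -0.34 for chromodomain and MBT genes to 0.44 for the other SET-domain genes, and the 9 genes stand at -0.092.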

How the data were processed

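Per the labels' protocols, a stranded kit that removes ribosomal RNA was used on total RNA, with single reads of 50 bases. The authors deposited raw read counts per gene identifier; the submitters' processing notes name HTSeq 0.7.2, STAR 2.7.3a, DESeq2 1.36.0 and fastp 0.20.1, with no role. Their genome build, annotation and strand setting: not given in the sources used here. A second file, the authors' comparison, holds log2 fold changes, p-values and mean normalized counts (a signal column, not used here), per the file headers.

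Lines that name no gene held 8.98% ± 0.24 of counted reads in mutants and 10.4% ± 0.84 in wild type (SD, n = 3 each) and were left out. Names, lengths and coordinates came from Ensembl release 115 (WBcel235), to which 46923 of 46934 identifiers were matched; 2 listed names, set-33 and tnp-1, were not. The test was that of edgeR 4.0.16 in R 4.3.3 (filterByExpr, TMM, robust quasi-likelihood F test on genotype, Benjamini-Hochberg over 9787 genes); DESeq2 1.42.0 was an alternative. A standard error is the log2 fold change over the square root of its F value, and intervals of 95% use it with the fit's degrees of freedom. A count of 0 allows up to 3 counts, 0.0942 to 0.130 CPM per library, for counting error only. No library was a copy of another (chi-square per degree of freedom 12.5 to 18.8 within genotypes over genes with at least 60 counts). The steps were tested on simulated data. Each change was given there to 48 to 50 of the tested genes, drawn from all levels. In the real libraries 62% of genes were called, so the adjusted threshold was harder to pass in the simulation. Of genes given a log2 change of 0.5 or -0.5 there, 67.3% and 46% were called in the right direction. For changes of 1 and -1 the shares were 75.5% and 81.25%, with 15 false calls over the 9570 genes tested. These shares do not give the power for the 9 genes, though a gene not called may still differ.

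The members and lists were chosen with earlier results of these data known. Named were the 9 genes, sin-3, the gene of each related list with the smallest p, and for the member with the smallest p in each direction the 3 most similar named genes, with 0.5 CPM added before the log2. Alternatives changed the scaling, the tool, the filter, the replicate block, the length and the libraries left out. No sequence is printed.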

Additional observations from a re-analysis of the deposited data

How the results depend on the processing

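Of the 9 genes, hpl-2, lin-61, lin-13, lin-65, arle-14, set-32 and hpl-1 kept their side of the threshold under every alternative run, though set-32 changed sign under library totals. The counts of 2 higher and 4 lower genes were 2 and 4 under the replicate block and with each library left out. Scaling by library totals reversed met-2 to 0.028, and with a mean of at least 5 CPM it was -0.070 (adjusted p = 0.0676). Under library totals 37 related genes were higher and 17 lower, and 1864 of all genes were lower. The cause was not tested, beyond the shift that this scaling puts on every gene. With the longest transcript as length, hpl-2 stood at 108.4 CPM per kilobase in mutants and 74.4 in wild type, lin-61 at 45.1 in mutants and 60.2 in wild type, and lin-65 at 59.6 in mutants and 53.0 in wild type. Leaving out 1 library at a time gave log2 ratio differences, mutant minus wild type, of -0.98 to -0.94 for lin-61 to hpl-2 and -0.89 to -0.85 for lin-13 to hpl-2. The same ranges were 0.29 to 0.34 for lin-65 to met-2, -0.23 to -0.19 for arle-14 to met-2, -0.34 to -0.21 for hpl-1 to hpl-2, 0.12 to 0.26 for set-25 to met-2 and -0.21 to -0.045 for set-32 to set-25. Libraries with the same replicate number did not deviate together (correlations of -0.25, -0.068 and -0.10), so the numbers were not taken as pairs; with the replicate block 2906 genes were higher and 2935 lower, against 3065 and 3003. The gene hpl-1 had 40 to 68 counts per library, and no value was obtained for it among genes of at least 5 CPM.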

Other observations

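Among the 76 tested genes of the related lists, those on the X and those on autosomes differed in direction. Of 10 X-linked genes 9 were higher and 0 lower in the mutant, with a median log2 fold change of 0.86; the exception was unc-84. Of 66 autosomal genes 8 were higher and 36 lower, with a median of -0.13. Among all X-linked genes tested 61.5% were higher and 2.97% lower, with a median of 0.54. For X-linked protein-coding genes the median was 0.62 with a mean under 8 CPM and 0.46 from 8 to under 64 CPM. It was 0.48 for those with a mean of 64 CPM or more. Among all autosomal genes tested 26.8% were higher and 34.8% lower, with a median of -0.036. For autosomal protein-coding genes the median was -0.12 with a mean of 64 CPM or more and -0.085 from 8 to under 64 CPM. It was 0.31 for the 2670 with a mean under 8 CPM, so direction also differed with level among autosomal genes. The X-linked set-6, set-20 and jmjd-3.1 have means under 8 CPM too. The X-linked H3K27 demethylase gene jmjd-3.1 stood at 7.96 ± 0.91 CPM in mutants and 2.57 ± 0.70 CPM in wild type (SD, n = 3 each). This split was seen after the values were known and was not tested.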
